A study of Mus musculus with 8 samples.

Results

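The genes described here are the ATP-binding cassette (ABC) genes and the organic solute carriers of the Slco and Slc22 families. They were taken by symbol: every gene in the files named Abca to Abcg, Slco or Slc22a with a number, with Abcb11 left out. That gave 88 of the 32285 genes listed, namely 49 ABC genes, 14 Slco genes and 25 Slc22 genes. The rule used gene names only, though it was set with earlier results of these data known.

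ABC transporters use ATP to push lipids, bile constituents, drugs and conjugates across membranes. In hepatocytes one set of them sits on the canalicular membrane and fills the bile, and another sits on the sinusoidal membrane and returns compounds to the blood. The Slco genes encode organic anion carriers, and the Slc22 genes carriers for organic cations, zwitterions and anions. In liver both take up bile acids, hormones, vitamins and drugs from the blood. The Abce and Abcf genes (1 and 3 here) share the ATP-binding domain but encode ribosome-associated proteins, not transporters.

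Nuclear RNA of 8 livers from male DIAMOND mice, 1 library per mouse, was sequenced with 10x Chromium 3′ v3.1 chemistry after snap-freezing. DIAMOND mice are a cross labelled 129A1/SvIm and C57BL/6J, and all 8 received Western diet (WD), a high-fat diet given with fructose and glucose in the drinking water. WD tumour mice (n = 3) stayed on it for 48 weeks and had hepatocellular carcinoma. RD tumour mice (n = 2) were moved back to a standard chow diet after 36 weeks of WD and had hepatocellular carcinoma, whereas RD no tumour mice (n = 3) had the same reversal and no detectable tumour. No mouse was kept on chow throughout. Whether the sampled pieces held tumour tissue is not given in the labels, and their statements on age conflict, so no age is given. Nothing in the labels says that the numbered replicates were handled separately beyond being different mice. The p-values measure the spread between these 8 libraries.

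After barcodes with fewer than 300 detected genes were removed, 79446 nuclei remained, with 17948627 to 34363108 unique molecular identifiers (UMIs) per mouse. Of the barcode sequences kept, 748 occurred in more than 1 library. RD tumour 1 stood apart: it had exactly 20000 barcodes, neutrophil markers summing to 2650 counts per 1000000 UMIs (CPM) against 31.3 to 803.5 in the other 7, and Slco1b2 at 44.8 CPM against 916 to 2097. WD tumour 1 and WD tumour 3 had median mitochondrial shares of 7.91% and 7.51%, against 1.30% to 3.28% elsewhere. RD tumour 2 carried pancreatic acinar markers at 300.9 CPM, against at most 9.40 in the others, and WD tumour 2 carried erythroid markers at 10570 CPM. Nuclei were sorted into classes by marker genes, none of them a member of the set. The gated hepatocytes numbered 2242 to 6219 per mouse, endothelial nuclei 546 to 1195, stellate cells and fibroblasts 132 to 763 and macrophages 209 to 1121. Cholangiocytes, the cells of the bile ducts, numbered 40 to 128 in 7 mice, and the 15 of RD tumour 1 were not used. The markers of each class, which the gate itself used in part, summed in the mice used to 2181 to 7860 CPM in endothelial nuclei, 2648 to 9666 in stellate cells and fibroblasts, 2164 to 5181 in macrophages and 1762 to 4641 in cholangiocytes. Hepatocyte markers in gated hepatocytes summed to 18210 CPM in RD tumour 1 and 26160 to 36210 in the other 7.

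The transporter set was dominated by a few hepatocyte genes. Slco1b2, an uptake carrier for bile acids and many drugs on the blood side, held 18.55% of all UMIs of the set. Abcc2, which exports bilirubin glucuronide and other conjugates into bile, held 14.38%, and Abcb4, the phosphatidylcholine floppase of the canaliculus, 8.33%. With Abca6 and Abca1 these genes made up 51.32%. Per kilobase of gene span, since nuclear RNA holds introns, the mean whole-library levels were 22.65 CPM per kb for Slco1b2, 16.93 for Abcc2, 8.71 for Abcb4, 5.58 for Abcg8, 5.08 for Abca6 and 4.99 for Slco1a1. Slc22a6 had no UMI in any mouse, 19 others had fewer than 100 in all 8 mice together, and 73 of the 88 passed the filter on low counts in the whole libraries. The set took 0.308% of the UMIs of RD tumour 1 and up to 0.868% in the other mice.

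The start sites of 5 members on which the comparisons below turn are shown first. Each line gives the 250 bases before the RefSeq start site on build GRCm38.p6, 5′ to 3′ on the gene's own strand, with a motif match in capitals. Slc22a3, Slc22a27 and Slco1b2 were higher in pericentral hepatocytes, Slco2a1 was lower there, and Slco1a1 separated the groups of mice. Their windows are chr17:12507705-12507954 (minus strand), chr19:7966028-7966277 (minus), chr6:141629268-141629517 (plus), chr9:103008237-103008486 (plus) and chr6:141946963-141947212 (minus).
Slc22a3: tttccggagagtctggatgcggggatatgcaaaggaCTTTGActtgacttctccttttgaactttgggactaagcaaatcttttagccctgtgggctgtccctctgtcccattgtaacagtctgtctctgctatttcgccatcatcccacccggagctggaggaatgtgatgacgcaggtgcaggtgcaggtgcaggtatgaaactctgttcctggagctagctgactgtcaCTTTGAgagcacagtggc
Slc22a27: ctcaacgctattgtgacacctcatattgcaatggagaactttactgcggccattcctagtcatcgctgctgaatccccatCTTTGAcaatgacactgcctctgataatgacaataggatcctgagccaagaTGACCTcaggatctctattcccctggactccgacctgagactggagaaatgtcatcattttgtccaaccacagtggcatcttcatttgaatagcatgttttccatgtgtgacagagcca
Slco1b2: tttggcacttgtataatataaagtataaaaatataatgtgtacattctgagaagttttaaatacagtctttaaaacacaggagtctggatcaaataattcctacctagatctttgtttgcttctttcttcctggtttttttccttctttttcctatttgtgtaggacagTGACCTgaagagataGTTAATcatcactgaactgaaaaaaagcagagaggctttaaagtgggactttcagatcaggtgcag
Slco2a1: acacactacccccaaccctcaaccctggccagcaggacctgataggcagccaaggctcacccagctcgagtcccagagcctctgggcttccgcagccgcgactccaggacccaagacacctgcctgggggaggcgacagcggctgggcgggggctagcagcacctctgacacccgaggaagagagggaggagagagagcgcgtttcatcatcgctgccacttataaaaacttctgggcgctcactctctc
Slco1a1: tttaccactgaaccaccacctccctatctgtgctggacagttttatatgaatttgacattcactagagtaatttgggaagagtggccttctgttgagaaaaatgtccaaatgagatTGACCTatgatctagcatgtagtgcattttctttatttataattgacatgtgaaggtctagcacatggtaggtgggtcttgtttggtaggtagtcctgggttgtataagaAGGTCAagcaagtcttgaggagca
The letters searched on both strands were CTTTGA (the core of a TCF/LEF motif, the factors of Wnt signalling), AGGTCA (a nuclear receptor half-site) and GTTAAT (an HNF1 half-site), and matches could overlap. Slc22a3 held CTTTGA at positions -214 and -18 from its start site. Slc22a27 held it at -170, with AGGTCA on the other strand at -119. Slco1b2 held AGGTCA on the other strand at -81 and GTTAAT at -66, and Slco1a1 held AGGTCA at -24 and, on the other strand, at -134. Slco2a1 held none of these letters in its window. That window lies inside the gene's GENCODE span (chr9:102988712-103096002), whereas the other windows lie just before theirs. Of all 32851 windows of this length, 13.8% held CTTTGA, 14% AGGTCA and 6.43% GTTAAT. For the 83 windows of the 71 members with an entry the shares were 18.1%, 13.3% and 4.82%, and for the 16 windows of members higher in pericentral hepatocytes 25%, 37.5% and 6.25%. A match is only a match of letters.

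The first comparison asked in which cells of the liver each transporter was found, within the same mice. Summed counts of each class were tested against those of gated hepatocytes with the mouse as a block, by edgeR's quasi-likelihood test with Benjamini-Hochberg adjustment over all genes. Of 58 members tested in endothelial nuclei, 12 were higher and 29 lower than in hepatocytes, where 25.1% of all 13784 genes were higher and 33.0% lower. In stellate cells and fibroblasts 15 of 58 were higher and 28 lower (all genes 24.8% and 27.5%, 52.2% in all), and in macrophages 16 of 57 were higher and 31 lower (26.4% and 31.0%). In cholangiocytes of 7 mice 8 of 56 were higher and 22 lower (10.9% and 14.0%). The share of members higher lay near that of all genes in each class, whereas the share lower was above it in every class. Median log2 differences of the members were -0.33, -0.38, -0.54 and -0.49 in this order, beside -0.09, -0.07, -0.09 and -0.10 over all genes.

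Hepatocyte transporters stayed detectable in every other class, as did hepatocyte RNA in general. Albumin (Alb) was lower than in hepatocytes by only 0.62 on the log2 scale in endothelial nuclei and 0.69 in macrophages, and the median of 10 hepatocyte markers ran from -0.92 in macrophages to -0.72 in the other classes. No expression in another class was read from a hepatocyte transporter lower by this much or more, and the source of its UMIs there was not tested. Slco1b2 in macrophages was between 29.95 and 1230 CPM with a median of 595, against 52.3 to 2387 and a median of 1662 in hepatocytes (log2 difference -1.53 ± 0.18 SE, adjusted p = 0.000309, lower in 8 of 8 mice). Without a like share of all genes to set beside it, 18 members were lower in all 4 classes. Among them were the canalicular exporters Abcc2, Abcb4 and Abcg8 and the uptake carriers Slco1a1 and Slco1a4. The list also held Slc22a3, Slc22a14, Slc22a23, Slc22a27 and Slc22a30, the plasma membrane gene Abcc6, the peroxisomal fatty acyl-CoA importer Abcd3, and Abcd4, Abcb6, Abca6 and Abca8b. Slc22a14 overlaps Slc22a13, Oxsr1 and Myd88 on its own strand and Acaa1a and Xylb on the other. The part of these genes in its counts was not tested.

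**Figure D1:**
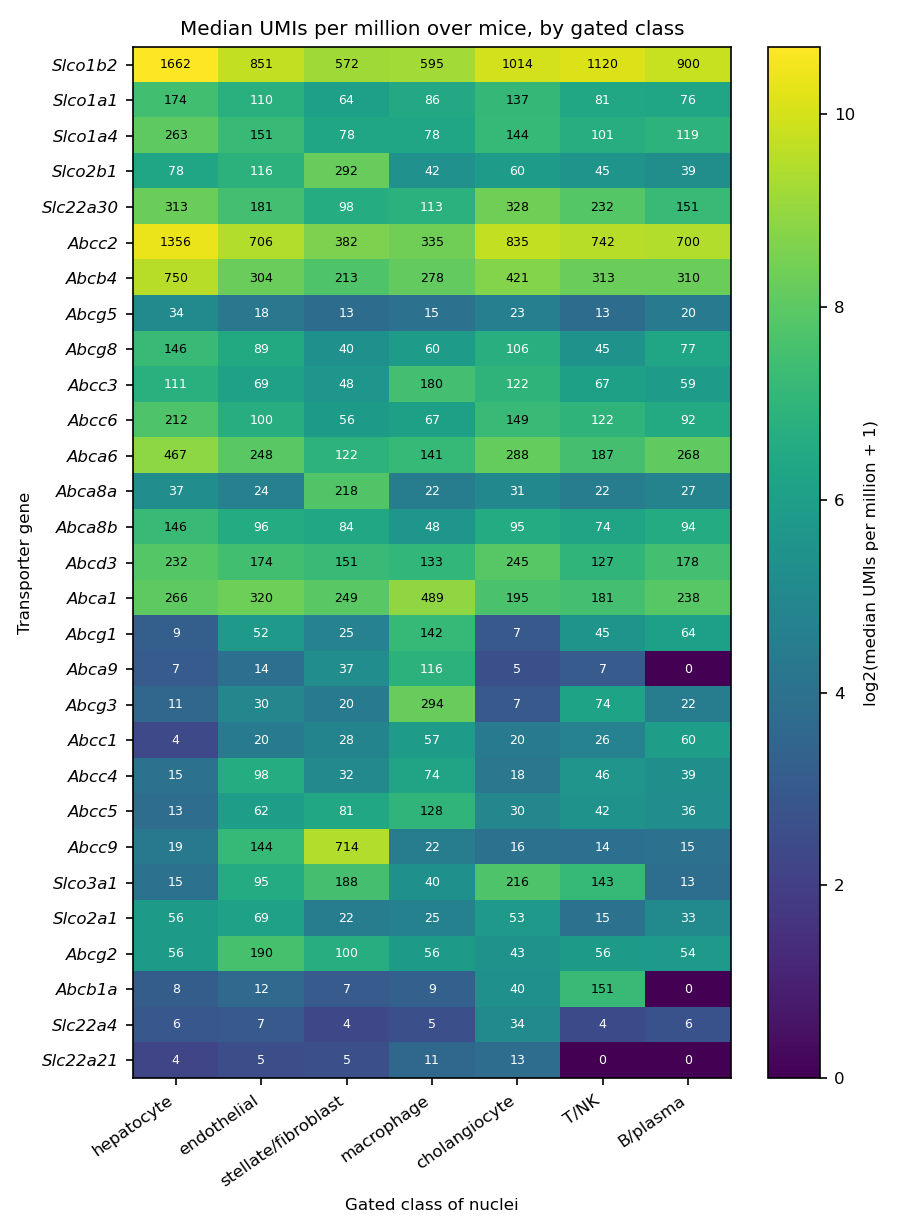
Heat map of transporters (rows) by gated class (columns). The number in each cell is the median CPM over mice and the colour is log2(median CPM + 1). Slco1b2 is present in every class with its highest median in hepatocytes (1662), and Abcc9 has its highest median in stellate cells and fibroblasts (714.5).

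Stellate cells and fibroblasts, the vitamin A-storing and matrix-making cells of the sinusoid and portal tract, were marked by Abcc9. It encodes SUR2, the regulatory subunit of an ATP-sensitive potassium channel of contractile cells. Abcc9 was between 285 and 962 CPM in the 8 mice with a median of 714.5, against 7.44 to 50.8 and a median of 19.15 in hepatocytes (log2 difference 5.25 ± 0.48 SE, adjusted p = 4.83e-06, edgeR). The ranges did not overlap. Slco3a1, a carrier of prostaglandins and other organic anions, ran from 144.7 to 425 CPM there with a median of 188 (3.60 ± 0.43 SE, adjusted p = 2.98e-05). Slco2b1, an uptake carrier of steroid sulfates and drugs, was at 44.9 to 338.5 CPM (log2 difference 1.65 ± 0.15 SE, adjusted p = 4.07e-06). It was not called in endothelial nuclei (0.29 ± 0.17) and was lower in macrophages (-1.04 ± 0.16) and cholangiocytes (-0.57 ± 0.15). RD tumour 1 was the lowest mouse for Abcc9 and Slco2b1. Abca8a and Abca9, neighbours in a cluster of lipid transporter genes, were higher by 2.55 ± 0.33 and 2.19 ± 0.20, while Abca8b of the same cluster was lower by 0.76 (log2 difference -0.76 ± 0.13). Abca8a and Abca8b are close copies, so reads may be split between them.

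Endothelial nuclei shared part of this pattern at lower levels. Abcc9 was between 34.9 and 359.5 CPM with a median of 143.5 (log2 difference 3.00 ± 0.39 SE, adjusted p = 0.000236, higher in 8 of 8 mice). Stellate and fibroblast markers summed to 198.6 to 543.7 CPM in the endothelial nuclei and to 56.0 to 315 CPM in hepatocytes, and their part in this difference was not tested. Abcg2, the breast cancer resistance protein that exports drugs and urate, had its highest median in endothelial nuclei, at 57.0 to 267.7 CPM with a median of 190, against a median of 55.7 in hepatocytes (1.31 ± 0.17, adjusted p = 0.00023). Abcc4, which exports cyclic nucleotides and bile acids, ran from 49.6 to 148.5 CPM there with a median of 97.97 (2.32 ± 0.28, adjusted p = 0.000192). Slc22a17, the lipocalin-2 receptor, was higher in endothelial and stellate nuclei by 2.99 ± 0.52 and 3.35 ± 0.61, at means of only 9.45 and 9.78 CPM.

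The 16 transporters higher in macrophages included Abca1 and Abcg1 of cholesterol efflux. The sterol exporters Abcg5 and Abcg8 were lower there (log2 differences -1.31 ± 0.16 and -1.41 ± 0.18 SE). Abcg3, a rodent relative of Abcg2, was between 19.2 and 532.9 CPM with a median of 293.9, against a median of 10.6 in hepatocytes (log2 difference 4.43 ± 0.65 SE, adjusted p = 0.000351, higher in 7 of 8 mice). The exception was RD tumour 1, with 19.2 CPM in macrophages and 19.3 in hepatocytes. Abcc1 (MRP1, which exports glutathione conjugates and leukotriene C4) was higher by 3.41 ± 0.47, Abca9 by 3.37 ± 0.36 and Abcc5, an exporter of cyclic nucleotides, by 3.00 ± 0.40. Abcg1, which passes cholesterol to high-density lipoprotein, was between 38.9 and 198 CPM in macrophages with a median of 142.5 and between 4.12 and 172.6 in hepatocytes with a median of 8.50 (3.04 ± 0.51, adjusted p = 0.000572, 8 of 8 mice). In RD tumour 1 Abcg1 was nearly level over the classes, at 172.6 CPM in hepatocytes, 184 in endothelial nuclei, 202 in stellate cells and 198 in macrophages. Without that mouse the macrophage differences were 4.85 for Abcg3 and 3.42 for Abcg1.

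Abca1, which loads cholesterol onto apolipoprotein A-I, was broad: its median was 489 CPM in macrophages, 320 in endothelial nuclei, 249 in stellate cells and 265.5 in hepatocytes. Its higher level in macrophages (log2 difference 0.57 ± 0.19 SE, adjusted p = 0.024 by edgeR) missed the threshold without RD no tumour 2 (0.0567), WD tumour 1 (0.0625) or WD tumour 3 (0.066). It also missed it with 1 more marker in the gate (0.0572) and with no filter (0.125). Of the peroxisomal fatty acyl-CoA importers, Abcd2 was higher in macrophages by 1.37 ± 0.39, and Abcd3 was lower by 1.05 (log2 difference -1.05 ± 0.13).

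Cholangiocytes had a short list of higher members, led by Slco3a1. Its 7 values ran from 119.7 to 311 CPM with a median of 215.7, against a median of 15.45 in hepatocytes of all 8 mice (log2 difference 3.78 ± 0.25 SE, adjusted p = 2.83e-11, 7 of 7 mice). Abcb1a, a P-glycoprotein gene that exports drugs, was at 23.3 to 96.97 CPM (2.06 ± 0.35, adjusted p = 0.000108), and its close copy Abcb1b at a mean of 4.51 CPM was not called. In T and NK nuclei, which were not tested, Abcb1a had a median of 151 CPM over 7 mice, the highest of any class. Slc22a4, which takes up ergothioneine, was higher in cholangiocytes by 1.67 ± 0.34 in 6 of 7 mice. Slc22a21, of the same gene cluster, was higher by 1.56 ± 0.42, a call lost without WD tumour 1 (adjusted p = 0.0535) or WD tumour 3 (0.0677). Only Abcc1, Abcc5 and Slco3a1 were higher than in hepatocytes in all 4 classes, again without a like share of all genes.

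**Figure D2:**
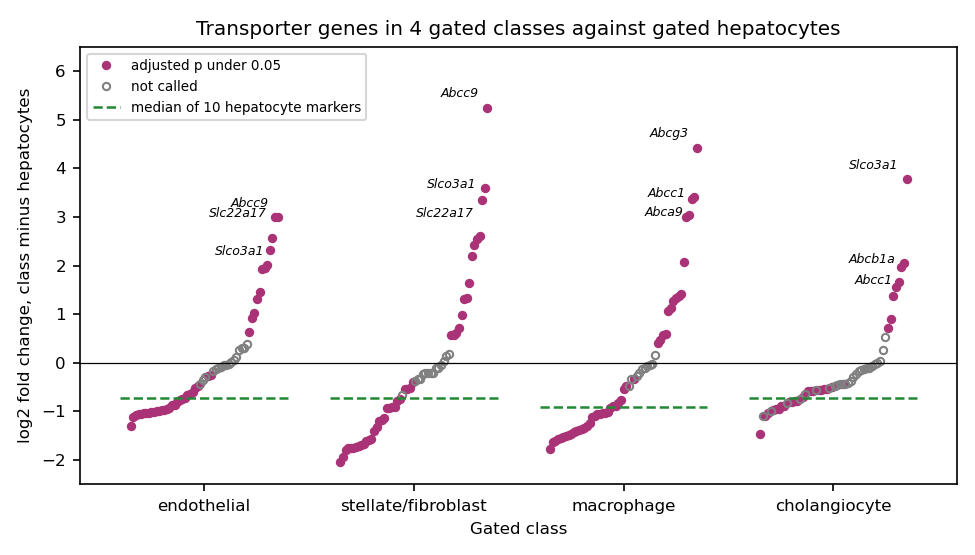
Log2 difference between each gated class (x axis) and gated hepatocytes, 1 point per member tested, sorted within the class, filled where the adjusted p is under 0.05. The dashed line is the median of 10 hepatocyte markers and the highest 3 members of each class are named, with Abcc9 at 5.25 in stellate cells and fibroblasts, Abcg3 at 4.43 in macrophages and Slco3a1 at 3.78 in cholangiocytes.

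Regulators and partners of transport, a list of 28 genes with nuclear receptors such as Nr1i3 (CAR) and scaffolds such as Pdzk1, mostly followed the hepatocytes. Of 25 tested, 20 were lower and 2 higher in endothelial nuclei, 19 and 2 in stellate cells, and 17 and 4 in macrophages. In cholangiocytes 14 of 26 were lower, and the 1 higher was Cftr, the chloride channel of bile duct cells (log2 difference 5.94 ± 0.48 SE, adjusted p = 1.38e-09). Nr1h3, the liver X receptor that drives Abca1 and Abcg1, was higher in macrophages by 1.499 ± 0.21 (adjusted p = 0.000316). Tap1 and Tap2, the peptide transporter genes of antigen presentation, were the higher pair in endothelial nuclei (0.79 ± 0.19 and 0.94 ± 0.21).

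The second comparison asked whether transporters differ between the ends of the liver lobule. Blood runs from the portal tract to the central vein, and periportal and pericentral hepatocytes have different enzymes. Of 55 members tested, 15 were higher and 2 lower in pericentral-gated than in periportal-gated hepatocytes, where 8.98% of all 11591 genes were higher and 9.72% lower. The members' median log2 difference was 0.07, beside -0.01 over all genes. Pericentral-gated nuclei were shallower in the WD mice, with median counts of 977, 1034 and 1630 UMIs against 3750, 4341 and 3836 in their periportal-gated nuclei, and their median mitochondrial shares were 11.6%, 5.24% and 6.83% against 2.91%, 1.22% and 2.87%. The part of this in the differences was not tested. Under all 13 alternatives, 1 of them with only nuclei at or under 5% mitochondrial UMIs, 10 higher members and 1 lower member were called. The like count of all genes is not given here.

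Slc22a3, the organic cation transporter OCT3 for monoamines, had the largest difference. Pericentral levels were 13.7 and 40.4 CPM in RD tumour, 43.7, 66.0 and 56.2 in RD no tumour, and 39.2, 26.9 and 40.1 in WD tumour. Periportal levels in the same order were 7.18 and 3.75, then 2.77, 2.91 and 4.47, then 2.08, 2.83 and 2.58. All 8 pericentral values were above all 8 periportal ones (log2 difference 3.72 ± 0.21 SE, adjusted p = 1.45e-09, edgeR). In whole libraries Slc22a3 was at 11.2, 14.4 and 13.97 CPM in RD no tumour and at 6.84 to 10.1 in the other 5 mice. Slc22a3 overlaps Plg and a further gene on the other strand, and the counting of strand is not given in the sources used here.

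The rodent anion carrier cluster on chromosome 19 was mostly pericentral. Slc22a27 ran from 9.15 to 204 CPM in pericentral nuclei with a median of 76.6, and from 1.23 to 86.25 with a median of 12.1 in periportal nuclei (2.29 ± 0.24, adjusted p = 2.36e-06, 8 of 8 mice). Slc22a28 was higher by 1.54 ± 0.17 and Slc22a26 by 1.43 ± 0.24. Slc22a30, the most abundant of the cluster, was not called and was slightly lower in 8 of 8 mice (-0.13 ± 0.07, adjusted p = 0.207). These genes are alike in sequence, so reads may have been split among them.

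Slco1b2 was at 128 and 2604 CPM pericentrally in RD tumour, 2019, 2965 and 3509 in RD no tumour and 3398, 1618 and 3748 among the WD tumour mice. Periportal values were 48.4 and 1111, then 979, 1174 and 1459, then 2084, 856 and 1757 in the same order. Within every mouse the pericentral value was the higher (1.12 ± 0.09, adjusted p = 5.63e-08), though the ranges over mice overlapped. Abcb4 was higher by 0.61 ± 0.10, Abcd4 by 0.63 ± 0.11, Abcc4 by 1.37 ± 0.31 and Slc22a23 by 0.44 ± 0.07. Slco2a1, the prostaglandin uptake carrier, went the other way: 8.72 to 56.9 CPM with a median of 34.7 pericentrally and 30.3 to 91.6 with a median of 79.7 periportally (log2 difference -1.05 ± 0.11 SE, adjusted p = 4.3e-06, lower in 8 of 8 mice).

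The calls of the remaining 6 members were lost under some alternatives, mostly with little change in the difference itself. Abcc9 was at 0.10 with nuclei at or under 5% mitochondrial UMIs (adjusted p = 0.814, edgeR) and at 0.06 with 1 more marker in the gate (0.939), in place of 0.63 ± 0.18. Over the 13 alternatives of Abcc9 the adjusted p ran from 0.00533 to 0.939. Where its call was lost, Abcb6 was at 0.34 to 0.44 (0.44 ± 0.13 over all 8 mice), Abcg2 at 0.24 to 0.33 (0.33 ± 0.10) and Abcc2 at 0.21 to 0.27 (0.25 ± 0.08). The call of Abcc2 was lost without any 1 of RD tumour 2, RD no tumour 2, RD no tumour 3, WD tumour 1 or WD tumour 3. Those of Abcb6 and Abcg2 were lost without RD tumour 2, RD no tumour 2, RD no tumour 3 or WD tumour 3. That of Abcd2 was lost without RD tumour 2, RD no tumour 3 or WD tumour 3 (-0.82 to -0.64, in place of -0.80 ± 0.24), and that of Abcb1b without RD no tumour 1 (0.62, in place of 0.82 ± 0.23). Without RD tumour 1, which had 107 pericentral-gated nuclei, 18 members were called in place of 17, and Slc22a3 was 3.93. WD tumour 2 had only 87 periportal-gated nuclei, against 627 to 2393 in the other mice. Of the 25 regulators and partners tested, 6 were higher and 2 lower, with the largest differences in Ahr, the dioxin receptor (1.40 ± 0.13), and Esrra (-0.69 ± 0.10).

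**Figure D3:**
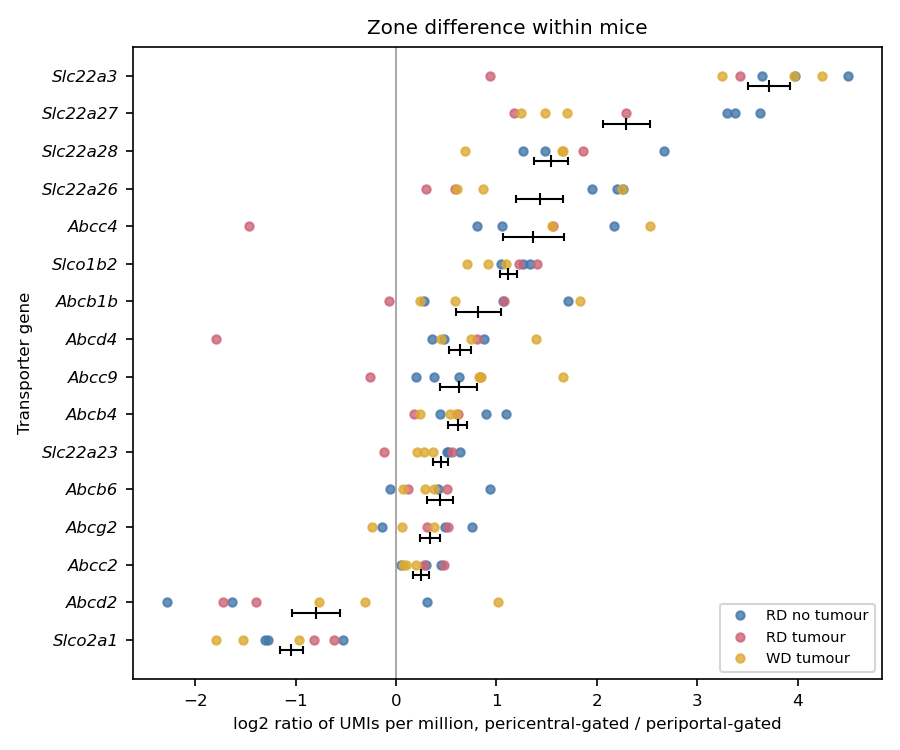
Log2 ratio of pericentral to periportal CPM (x axis) for called transporters that the text reports, 1 point per mouse, coloured by group, where both levels are above 0. The black mark under the points is the fitted log2 difference with its SE. Slc22a3 lies above 0 in all 8 mice and Slco2a1 below 0 in all 8.

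The third set of comparisons was between the groups of mice. RD tumour less RD no tumour, called the tumour comparison here, sets tumour-bearing against tumour-free livers after the same reversal. WD tumour less RD tumour, the diet comparison, sets the diets side by side in tumour-bearing livers. In the combined comparison, WD tumour less RD no tumour, both differ. Each pair of comparisons shares mice. No member was called by edgeR at an adjusted p of 0.05 in the whole libraries, where 0% of 19087 genes were called, nor in gated hepatocytes, endothelial nuclei or macrophages, where 0% of 16302, 13882 and 12583 genes were called. At an unadjusted p of 0.05 the members numbered 7 in the tumour, 4 in the combined and 4 in the diet comparison of whole libraries, beside 1279, 524 and 1443 of all genes tested there. In the same order they numbered 13, 5 and 6 in hepatocytes (2058, 663 and 1369 genes), 2, 2 and 2 in endothelial nuclei (1027, 207 and 1112), and 3, 3 and 6 in macrophages (1075, 251 and 1593). The DESeq2 Wald test called 1, 1 and 2 members in whole libraries, 3, 1 and 1 in hepatocytes, 0 in endothelial nuclei, and 0, 0 and 1 in macrophages. In the whole libraries, fewer cells of a type and less RNA per cell cannot be told apart.

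Slco1a1, a sinusoidal uptake carrier of bile acids and steroid conjugates, separated the tumour-free mice from the others. In gated hepatocytes it was at 405.5, 409 and 452.5 CPM in RD no tumour mice, 143.8 and 112 for RD tumour, and 143.8, 205 and 117 for WD tumour. Every tumour-free mouse was above every tumour-bearing one. The log2 difference was -1.92 ± 0.34 SE in the tumour comparison (adjusted p = 0.311, edgeR) and -1.46 ± 0.29 in the combined comparison (adjusted p = 0.692, edgeR). DESeq2 gave adjusted p-values of 1.91e-05 and 0.000821. Over 15 alternatives each, the difference ran from -2.04 to -1.83 with adjusted p-values of 1.91e-05 to 0.734, and from -1.71 to -1.29 with 0.000821 to 1. The edgeR call was made only without RD tumour 2 (-1.83, adjusted p = 0.0204). Leaving out RD tumour 1 gave -2.04. Hepatocyte depth set the same mice apart. Median UMIs per gated hepatocyte were 2497, 4206 and 2435 in the tumour-free mice. Among the tumour-bearing mice they were 1356 and 986.5 after the reversal and 1025, 996.5 and 1040 under WD. The part of depth in the Slco1a1 difference was not tested.

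The tumour-free mice were also the highest at both ends of the lobule. The zone nuclei are part of the same gated hepatocytes, so this is not a separate result. Pericentral Slco1a1 was at 279, 386 and 372 CPM in RD no tumour mice, 105 and 80.2 for RD tumour and 193, 242 and 188 among the WD tumour mice. Periportal values were 552, 435 and 519, then 176 and 144, then 137.5, 147 and 92.1. In neither zone did the tumour-free group overlap the others. Whole-library values were 267.6, 312.9 and 406.9 in RD no tumour mice, 116 and 99.1 for RD tumour and 129, 154 and 98.8 among the WD tumour mice. WD tumour and RD tumour differed by 0.2 to 0.62 on the log2 scale in hepatocytes over the alternatives, and no alternative called it. Slco1a1 has close relatives beside it on chromosome 6, Slco1a4 among them, and reads could be split between these genes. Slco1a4 had no such order in hepatocytes, with 94.5, 240 and 494 CPM in RD no tumour and 27.0 to 344 in the tumour-bearing mice.

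**Figure D4:**
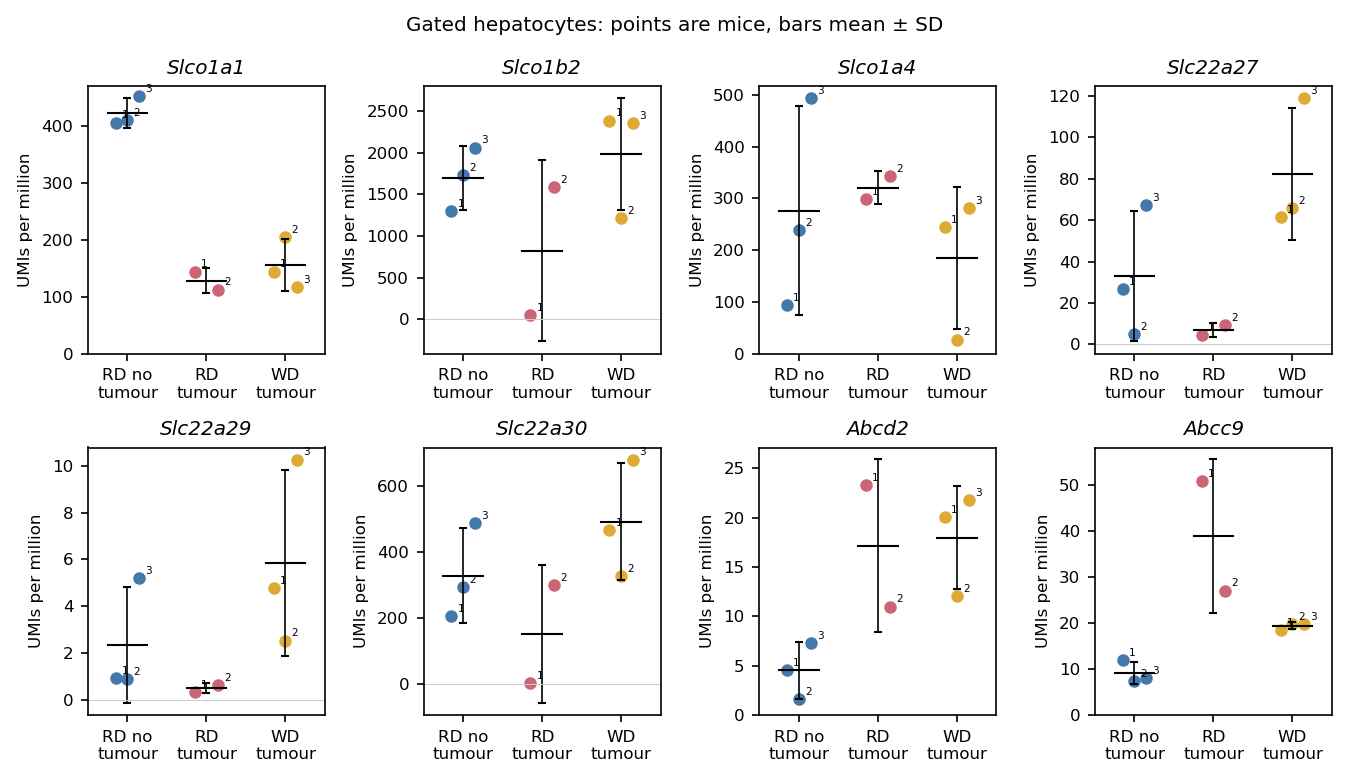
CPM in gated hepatocytes by group on a linear axis, 1 point per mouse labelled by its replicate number, with bars for the mean ± SD. For Slco1a1 the 3 RD no tumour mice lie between 405.5 and 452.5, above the other 5 at 112 to 205.

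The members whose groups did not overlap in hepatocytes were counted in each direction. In the tumour comparison, 9 of 65 were higher (16.8% of all genes) and 5 lower (7.67%). In the combined comparison 6 were higher (6.93%) and 3 lower (5.61%), and in the diet comparison 6 were higher (8.54%) and 8 lower (15.9%). These shares lie near those of all genes. In whole libraries the counts of 73 were 5 and 4 (10.8% and 5.85%), 7 and 3 (6.85% and 3.80%), and 6 and 5 (10.4% and 11.0%) in the same order.

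In the Slc22 cluster, Slc22a27 was at 61.7, 66.0 and 119 CPM in hepatocytes of WD tumour mice, 4.62 and 9.32 in RD tumour, and 26.7, 5.17 and 67.3 in RD no tumour. WD tumour and RD tumour did not overlap, and RD no tumour spanned both. The log2 difference in the diet comparison was 3.71 ± 1.04 SE (adjusted p = 0.563 by edgeR, 0.0167 by DESeq2, 0.0167 to 0.99 over 15 alternatives). Slc22a29 was at 4.76, 2.53 and 10.3 CPM in WD tumour mice, 0.338 and 0.638 for RD tumour, and 0.937, 0.889 and 5.20 for RD no tumour. Both other groups lay above RD tumour (diet comparison 3.73 ± 1.14 SE, adjusted p = 0.563, and tumour comparison -2.46 ± 1.09, adjusted p = 0.403, edgeR). Slc22a29 had only 530 UMIs over all nuclei of the 8 mice, so its RD tumour values rest on few UMIs. Slc22a30 was at 328, 466 and 679.5 CPM in WD tumour mice, 204 to 488 in RD no tumour, and 3.61 and 298 in RD tumour, and the diet difference of 1.82 was 0.81 without RD tumour 1. Slc22a26 was at 12.0 to 18.4 CPM in WD tumour, above all 3 RD no tumour mice with at most 7.68 (1.38 ± 0.45, adjusted p = 0.996), and RD tumour 1 had 14.4.

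Other members with no overlap between groups follow. Slc22a23, an orphan carrier, was at 315, 297 and 303 CPM in hepatocytes of WD tumour, 225, 181.5 and 270.3 in RD no tumour and 36.8 and 220.8 among the RD tumour mice (diet comparison 1.38 ± 0.67 SE, or 0.56 without RD tumour 1). Abca13 was at 19.6 CPM in the first RD no tumour mouse and 18.0 in RD tumour 1, and at most at 1.40 in the other 6 mice. Abca14 was at 1.87 to 8.56 CPM in RD no tumour and 0.511 to 1.24 among the RD tumour mice. With only 557 UMIs over all nuclei of the 8 mice, its levels rest on few UMIs.

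In whole libraries Abcb1a was at 10.3, 8.17 and 9.16 CPM in RD no tumour, below 24.5 and 11.8 in RD tumour and 19.6, 13.8 and 18.8 among the WD tumour mice (0.93 ± 0.38 and 0.88 ± 0.35 SE against RD no tumour, adjusted p = 0.612 and 1, edgeR). Abca8a was at 108, 45.1 and 84.8 CPM in WD tumour and 21.6, 33.4 and 40.2 among the RD no tumour mice (1.28 ± 0.47). Abca2, a lipid transporter of lysosomes, was at 14.8 and 10.4 CPM in RD tumour and 5.57 to 8.45 in the other 6.

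Abcd2 in hepatocytes was at 20.02, 12.02 and 21.8 CPM in WD tumour mice, 23.3 and 10.98 in RD tumour and 4.59, 1.62 and 7.32 among the RD no tumour mice. The tumour-free mice were the lowest 3 (combined comparison 1.96 ± 0.57, adjusted p = 0.962, edgeR). Abcc9 in hepatocytes followed the same order, with 18.5, 19.8 and 19.8 CPM in WD tumour mice, 50.8 and 27.1 in RD tumour and 11.9, 7.44 and 7.97 among the RD no tumour mice (tumour comparison 1.90 ± 0.33, adjusted p = 0.308 by edgeR, 0.000177 by DESeq2, 0.000177 to 0.734 over 15 alternatives). Stellate and fibroblast markers in these hepatocyte nuclei summed to 141 to 219.8 CPM in WD tumour mice, 258 to 315 in RD tumour and 56.0 to 142 among the RD no tumour mice, with 10 of 10 detected in every mouse. Their part in the result was not tested, nor was that of hepatocyte depth, which set the tumour-free mice apart as given for Slco1a1. Abcg1 and Slc22a17 were high in hepatocytes of RD tumour 1 alone (172.6 and 7.89 CPM, against at most 30.8 and 2.74 in the other 7), and macrophage markers there summed to 1085 CPM, with 12 of 12 detected, against 84.9 to 545.6. Their part was not tested.

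The uptake and canalicular genes with the highest levels did not separate the groups outside RD tumour 1. Slco1b2 in hepatocytes was at 52.3 and 1592 CPM in RD tumour, 1295, 1732 and 2064 in RD no tumour and 2387, 1214 and 2361 among the WD tumour mice. Abcc2 was at 162 and 1250, then 1009, 1461 and 1597, then 1651, 821 and 1715 CPM. Abcb4 was at 153 and 1313, then 763.5, 875.5 and 604, then 736, 791 and 426 CPM, with the highest value in RD tumour 2. In all 3 genes the lowest mouse was RD tumour 1. The 2 larger groups overlapped. The sterol exporter Abcg8 was at 228 and 103.5 CPM in RD tumour, 159, 95.4 and 250.1 in RD no tumour and 211, 120.0 and 133 among the WD tumour mice, and Abcc6, which releases ATP, at 17.6 in RD tumour 1 and 165 to 293 in the other 7. Without RD tumour 2, so that RD tumour 1 alone stood for its group, edgeR called 28 members in hepatocytes in the tumour comparison and 22 in the diet comparison. Of all genes 5241 and 3921 were then called. A lone mouse is assumed there to vary like the other groups.

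In macrophages, Abca1 was at 776, 499 and 690 CPM in WD tumour mice, 177 and 297 in RD tumour and 479, 519 and 431 among the RD no tumour mice. The RD tumour mice were the lowest 2, and WD tumour and RD no tumour overlapped. The log2 difference in the diet comparison was 1.48 ± 0.34 SE (adjusted p = 0.278, edgeR). DESeq2 gave 0.00439, and the adjusted p ran from 0.00439 to 0.639 over 14 alternatives. Without RD tumour 2 it was 0.0246 (1.84). Macrophage markers in these nuclei summed to 3163 to 5181 CPM in WD tumour mice, 2164 to 2953 in RD tumour and 3768 to 4823 among the RD no tumour mice and were lowest in the same mice as Abca1. Their part was not tested. Outside macrophages, too, Abca1 was higher without overlap in WD tumour than in RD tumour. The diet differences were 0.84 ± 0.36 SE in hepatocytes, 0.72 ± 0.35 in endothelial nuclei and 0.80 in whole libraries. EdgeR called none of them. Abcg1 in macrophages was at 166, 178 and 143.5 CPM in WD tumour mice, 198 and 38.9 in RD tumour and at most 142 in RD no tumour (diet comparison 0.41 ± 0.66, -0.33 without RD tumour 2 and 2.11 with RD tumour 1 left out).

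**Figure D5:**
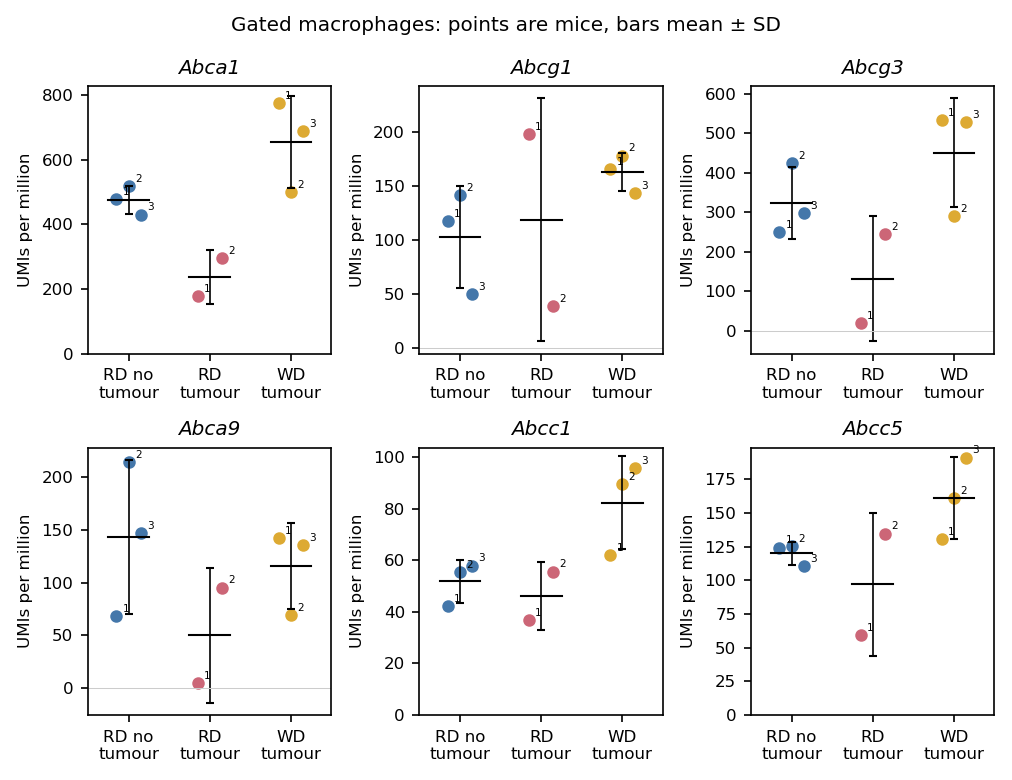
CPM in gated macrophages by group on a linear axis, 1 point per mouse labelled by its replicate number, with bars for the mean ± SD. For Abca1 the 2 RD tumour mice (177 and 297) lie below the other 6, and for Abcg3 RD tumour 1 (19.2) lies far below the rest.

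Members whose groups did not overlap in macrophages numbered 7 higher and 10 lower of 57 in the diet comparison (14.1% and 12.2% of all genes). In the tumour comparison there were 3 higher and 4 lower (11.6% and 10.1%), and in the combined comparison 3 and 2 (6.90% and 3.88%). In endothelial nuclei the counts of 59 were 5 and 1 (12.5% and 7.51%) in the tumour comparison, 4 and 2 (5.68% and 2.90%) in the combined comparison, and 5 and 5 (11.9% and 10.9%) in the diet comparison. Of the regulators and partners, none was called in any of the 12 group comparisons by edgeR, with at most 4 of 28 at an unadjusted p of 0.05.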

How the data were processed

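The deposited files hold raw UMI counts per gene and nucleus for 8 libraries, made by the authors with Cell Ranger 7.0.0, per the file headers, and aligned to mm10, per the submitters' processing notes. Counting settings for introns and strand are not given in the sources used here. Barcodes with at least 300 genes were kept, and counts were summed per mouse over all nuclei and over gated classes. A non-hepatocyte class needed at least 3 of its markers and a lead of 2. Hepatocytes needed 6 of 10 markers, with at most 1 marker of any other class and 2 in all. Pericentral and periportal hepatocytes needed a lead of 2 zone markers. Of 93 non-hepatocyte markers, 10 found in over 25% of nuclei of any library were left out. A class needed 20 nuclei in a mouse. These rules were set after gate sizes were seen. No doublet caller was run. A nucleus with markers of different non-hepatocyte classes was left out of these classes only where the lead fell short of 2. Hepatocyte markers were not checked in the non-hepatocyte gates, so nuclei mixed with hepatocytes could pass.

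Sums were fitted over all genes with edgeR 4.0.16 (R 4.3.3; TMM, filterByExpr, quasi-likelihood test, Benjamini-Hochberg adjusted p of 0.05), without a covariate between groups, and with the mouse as a block between classes and zones. DESeq2 1.42.0 was an alternative, as were other filters and gates, the replicate number as a block, and leaving out each mouse. The script was tested on simulated data. CPM are counts per 1000000 UMIs of the class and are not per length. Precision is limited by 17948627 to 34363108 UMIs and 2 or 3 mice a group. All 88 symbols were in GENCODE M21, where 20 overlap another gene. Named genes are the members called in any comparison, the 5 highest per class, the 5 with the largest change without overlap per group comparison, and a list of known roles, of which the text gives those the results turn on. Members and lists were chosen with earlier results of these data known. Some members are counted but not reported here by name.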

Additional observations from a re-analysis of the deposited data

How the results depend on the processing

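Of 34 counts of called members or genes, recomputed under 476 alternatives, 433 values stayed within 1.5 times the main count and 43, all in group comparisons, rose from 0. In the order tumour, combined and diet comparison, DESeq2 called 1, 1 and 2 members (67, 36 and 109 genes) in whole libraries and 3, 1 and 1 (377, 74 and 96) in hepatocytes. In endothelial nuclei it called no member (52, 5 and 47 genes), and in macrophages 0, 0 and 1 (32, 5 and 221). Leaving out 1 mouse gave, in the tumour comparison, 0 to 25 members and 0 to 4569 genes in whole libraries, 0 to 28 and 0 to 5241 in hepatocytes, 0 to 4 and 0 to 1239 in endothelial nuclei, and 0 to 12 and 0 to 1803 in macrophages. In the diet comparison the ranges were 0 to 18 and 0 to 4438, 0 to 22 and 0 to 3921, 0 to 4 and 0 to 1240, and 0 to 10 and 0 to 1869. The upper ends came without RD tumour 2. Without RD tumour 1, 11 genes were called in whole libraries and 2 in hepatocytes in the tumour comparison, and 2 in hepatocytes in the diet comparison. In the combined comparison, leaving out 1 mouse gave 0 members in every scope and 0 to 1 genes in endothelial nuclei (1 without RD no tumour 1). In macrophages, the diet comparison had 3 genes with no filter on low counts and 1 without RD no tumour 3. The cause was not tested, except that leaving out a mouse of RD tumour leaves a lone one.

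Leaving out 1 mouse gave 40 to 44 members called in endothelial nuclei (7091 to 8238 of all genes) and 38 to 44 in stellate cells (6216 to 7158). In macrophages there were 41 to 48 members (6897 to 8355 genes), in cholangiocytes 22 to 31 (2298 to 3163) and between zones 12 to 18 (1649 to 2425). Over 86 values of named genes and 1176 alternatives, 1121 kept direction and side of the threshold, 34 lost the call, 20 gained it and 1 changed sign: Abcg1 in macrophages, diet comparison, was -0.33 without RD tumour 2, against 2.11 with RD tumour 1 left out. A block of libraries with alike profiles, chosen after seeing the data, called 2 genes in whole libraries and 31 in hepatocytes in the combined comparison, none of them a member. With the replicate number as a block, 0 members and 0 genes were called in each of the 12 group comparisons. Same-numbered mice correlated between -0.53 and 0.44 in their deviation from the group means. With so few mice a group these deviations are tied to each other, so whether the numbers pair the mice cannot be told.

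Limits: 2 RD tumour mice, 1 of them far from all others, stand behind every comparison with that group. Hepatocyte RNA was found in every class, and close copies (Slco1a1 and Slco1a4, Slc22a26 to Slc22a30, Abca8a and Abca8b, Abcb1a and Abcb1b) can share reads. Members that missed the filter on low counts had too few UMIs for a test at this depth.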
